A study of Mus musculus with 32 samples.

Results

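The 10 genes described here belong to the BCL-2 family, which decides at the mitochondrial outer membrane whether a damaged cell lives or dies. They were chosen by name as survival and death genes of the family outside the best known direct p53 targets (Bax, Bbc3 and Pmaip1), and all 10 were matched by symbol among the 55401 gene identifiers counted in each mouse. RNA sequencing covered the epidermis of 32 mice of the mixed SKH-1/SV129/BL6/J background, aged 10 to 14 weeks, with 1 library per mouse. Wild-type (WT) mice and littermates labelled as knockouts of Ppard, the gene of the nuclear receptor PPARβ/δ (Ppard-/-), either received a single UV dose of 120 mJ/cm2 on the back, which is below the dose that reddens skin, or were handled without exposure. Skin of exposed mice was taken 24 h after UV, and the unexposed mice carry the time label 0 h. Exposure and time label can therefore not be told apart. The epidermis was separated from the dermis, and each combination of genotype and treatment held 8 mice, 4 of each sex. Which cells lack the gene and which part of it was deleted are not given in the sources used here.

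The family works by binding between its members. BCL-2, BCL-XL (gene Bcl2l1), BCL-W (Bcl2l2) and MCL-1 hold the effectors in check and keep cells alive. The BH3-only proteins BIM (Bcl2l11), BID, BAD and BMF sense stress and neutralise the survival proteins or activate the effectors, and BAK (Bak1) is an effector that opens the mitochondrial outer membrane and releases cytochrome c. BOK resembles the effectors in structure but is held less by the survival proteins. In the epidermis the pathway is known for removing keratinocytes with heavy UV damage, the sunburn cells.

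After UV, the family did not move as one. Bcl2 and Bmf fell in both genotypes, Bid, Bok, Bak1 and Mcl1 rose, and Bcl2l1 and Bad did not pass the test in either, although Bcl2l1 in WT mice lay near the threshold. Promoter sequences are shown first, for the 2 members that fell furthest and the 2 that rose furthest. Each is the 250 bases before the RefSeq start site, read 5′ to 3′ on the gene's strand in mouse assembly GRCm38.p6, with matches to the searched motifs in capitals.
Bcl2, chr1:106714291-106714540 (- strand): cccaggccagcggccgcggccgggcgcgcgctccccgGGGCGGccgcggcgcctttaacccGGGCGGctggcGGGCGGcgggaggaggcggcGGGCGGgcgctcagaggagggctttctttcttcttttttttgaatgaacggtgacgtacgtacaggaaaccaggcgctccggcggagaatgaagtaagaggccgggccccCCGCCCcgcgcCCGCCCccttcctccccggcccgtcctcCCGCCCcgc
Bmf, chr2:118549687-118549936 (- strand): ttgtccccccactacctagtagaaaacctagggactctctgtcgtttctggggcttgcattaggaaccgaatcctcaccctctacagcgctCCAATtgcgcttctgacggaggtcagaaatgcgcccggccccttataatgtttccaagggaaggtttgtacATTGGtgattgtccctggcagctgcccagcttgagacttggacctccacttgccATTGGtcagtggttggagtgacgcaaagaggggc
Bid, chr6:120916825-120917074 (- strand): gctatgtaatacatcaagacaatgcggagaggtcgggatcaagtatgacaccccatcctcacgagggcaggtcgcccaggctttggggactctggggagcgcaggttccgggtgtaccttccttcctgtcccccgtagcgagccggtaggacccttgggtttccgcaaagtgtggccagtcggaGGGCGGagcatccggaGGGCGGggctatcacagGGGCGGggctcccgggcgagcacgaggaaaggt
Bok, chr1:93685325-93685574 (+ strand): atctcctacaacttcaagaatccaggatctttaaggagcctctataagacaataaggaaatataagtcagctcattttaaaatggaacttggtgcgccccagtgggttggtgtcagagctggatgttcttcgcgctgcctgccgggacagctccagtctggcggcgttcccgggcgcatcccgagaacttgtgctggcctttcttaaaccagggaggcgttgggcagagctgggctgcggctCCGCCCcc

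The search covered 6 motifs on both strands, and no match overlapped another. The CCAAT box was searched by its name, the GC box as GGGCGG, the TATA box as TATAAA, the AP-1 site as TGAGTCA, the E-box as CACGTG and the FOXO site as GTAAACA. The Bcl2 window held 7 GC boxes and had a GC content of 74.8%, against a median of 52.4% over all 32851 RefSeq windows of this length. The Bid window held 3 GC boxes and the Bok window 1. The Bmf window held no GC box and 3 CCAAT boxes. Over all windows, 32.7% held a GC box, 33.8% a CCAAT box, 12.4% a TATA box, 6.02% an E-box, 4.46% an AP-1 site and 3.17% a FOXO site. The windows of Bcl2, Bmf, Bid and Bok held none of the last 4. These matches describe letters and not bound sites.

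Depth was 22919428 to 40653581 counts on genes per mouse. Of all identifiers, 15546 reached 1 cpm (CPM, a gene's counts scaled to library size) in 1 mouse or more and were tested, among them all 10 members. Values are cpm after TMM scaling, on a linear scale, unless a log2 fold change is named. Keratinocyte markers, which define the labelled tissue, were high in every library (the 6 basal markers summed to 5128 cpm or more and the 7 suprabasal markers to 10034 cpm or more). A Ppard-/- female after UV, mouse 54F, stood apart. Its log2 cpm correlated at 0.907 with the mean of its group, against 0.952 or more in the other mice, and 6 fibroblast markers summed to 1982 cpm there against at most 92.2 cpm in the other 31. Mitochondrial counts exceeded 5% in 3 mice (52F, 58M and 74F), all labelled Ppard-/- and exposed to UV. For single members, values without 54F or without these 3 mice are given where they changed a UV response call or a named genotype call. Without these 3 mice, 54F and 66F are the only Ppard-/- females after UV, so 54F weighs more in those fits.

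Ppard itself was measured in every mouse. Without UV it ranged from 70.3 to 88.9 cpm (median 77.5) in the mice labelled Ppard-/- and from 87.3 to 105 cpm (median 94.0) in WT mice, with a small overlap. After UV it ranged from 175 to 239 cpm (median 219) in Ppard-/- mice and from 252 to 326 cpm (median 279) in WT mice, with no overlap. The log2 difference between genotypes was -0.26 ± 0.07 (SE, adjusted P = 0.156) without UV and -0.42 ± 0.07 (adjusted P = 0.00114) after UV by the quasi-likelihood test of edgeR, adjusted after Benjamini and Hochberg. Reads on the gene were thus not lost in the mice labelled Ppard-/-. With the deleted part unknown, this level is no check of the genotype labels.

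**Figure D1:**
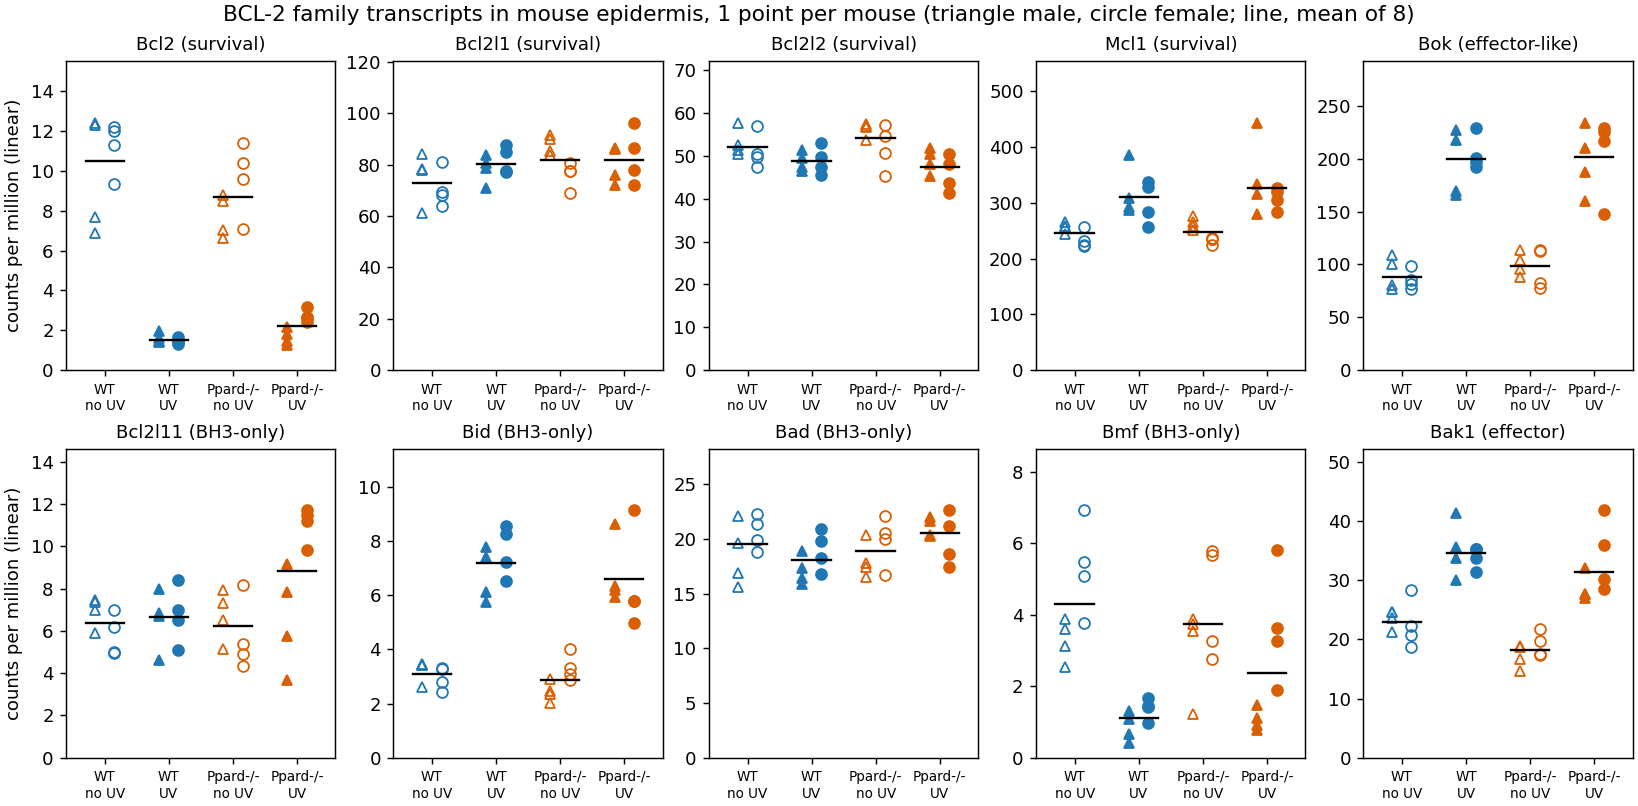
Scaled counts (cpm, linear axis from 0, a separate scale per gene) of the 10 BCL-2 family genes, with 1 point per mouse in 4 groups of 8 (WT or Ppard-/-, with or without UV). Triangles are males, circles females, open symbols mice without UV, and lines the group means. Bcl2 drops to 3.19 cpm or less in every UV-exposed mouse, Bid, Bok and Bak1 rise in both genotypes, and Bcl2l2 and Bad stay within a narrow band.

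Levels were compared between genes only per length, as cpm per kb of merged exons. In WT epidermis without UV, Mcl1 was the highest at 71.8 ± 4.89 cpm per kb (SD, n = 8), followed by Bok at 48.2 ± 6.65 and Bcl2l1 at 15.9 ± 1.83, each without overlap with the next. Bcl2l2 (11.7), Bak1 (9.56) and Bad (7.65) came next, and neighbours among these 3 overlapped. Bcl2 (1.15), Bid (0.871), Bmf (0.819) and Bcl2l11 (0.792) lay lowest and their ranges overlapped. After UV, the order at both ends changed. Bok reached 109 ± 13.0 cpm per kb and overlapped with Mcl1 at 90.7 ± 11.7, and Bcl2 became the lowest member at 0.167 ± 0.0231, overlapping with Bmf at 0.214 ± 0.0813. Bid (2.03 ± 0.284) then lay above Bcl2l11 (0.83 ± 0.160) without overlap. The Ppard-/- mice after UV had the same members in the first and the last place, Bok at 109 and Bcl2 at 0.241 cpm per kb.

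**Figure D2:**
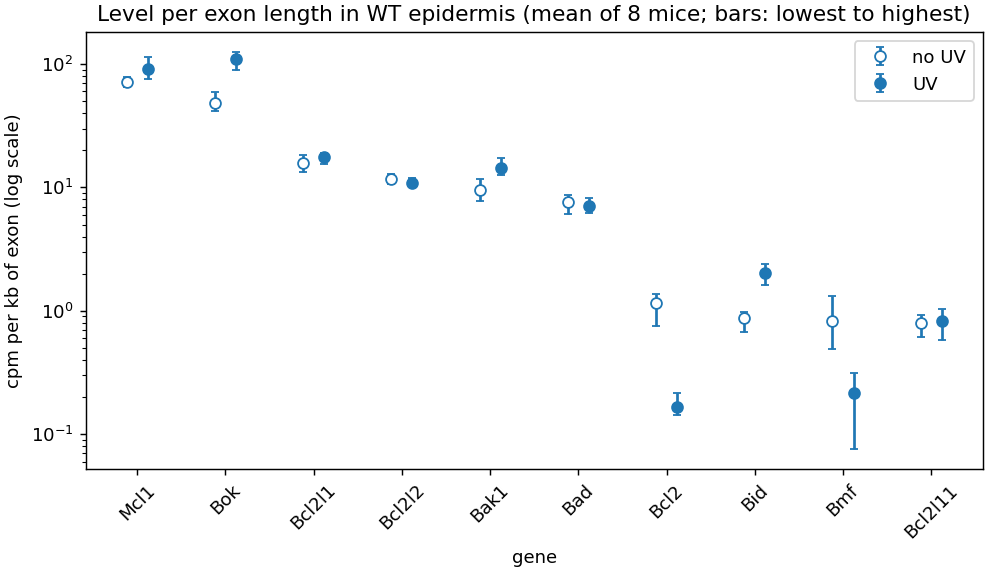
Level per exon length (cpm per kb, log axis) of the 10 genes in WT epidermis, ordered by the level without UV, with the mean of 8 mice and bars from the lowest to the highest mouse. Bok and Bid rise along the axis after UV (filled), while Bcl2 and Bmf drop from about the level of Bcl2l11 to below it.

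The first question was what a single UV dose does to the family in each genotype. In WT mice, 6 of the 10 members changed (4 higher, 2 lower) at an adjusted P under 0.05, beside 71% of all genes tested. In Ppard-/- mice, 8 of 10 changed (5 higher, 3 lower), beside 70.8% of all genes. The share of members called was near that of all genes in WT mice, so the number of calls does not set the family apart, and the size and direction of single members are described instead. The median log2 fold change over the members was 0.10 in WT mice and 0.25 in Ppard-/- mice, against -0.01 and 0.09 over all genes. All folds and adjusted P values of single genes that follow are from edgeR's quasi-likelihood test.

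Bcl2 (chr1:106538178-106714274, minus strand, GRCm38), the founding survival gene of the family, fell the most. Without UV it ranged from 6.86 to 12.4 cpm (median 11.6) in WT mice and from 6.64 to 11.4 cpm (median 8.62) in Ppard-/- mice. After UV it ranged from 1.31 to 1.97 cpm (median 1.45) and from 1.28 to 3.19 cpm (median 2.27), which is 31 to 110 reads per mouse. Every exposed mouse lay below every unexposed mouse in both genotypes. The log2 fold change was -2.77 ± 0.14 (SE, adjusted P = 1.37e-15, a 6.84-fold fall) in WT and -2.0 ± 0.14 (adjusted P = 6.21e-13, 4.01-fold) in Ppard-/- mice. The fall was present in each sex, with log2 values of -2.60 in WT males, -2.95 in WT females, -2.20 in Ppard-/- males and -1.81 in Ppard-/- females. The antisense gene D630008O14Rik shares 558 exon bases with Bcl2. The strand setting of the counting is not given, so it is unknown whether reads from the shared part were counted for either gene or set aside as ambiguous.

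T cell markers fell alongside. The 7 markers summed to 111 to 211 cpm in WT mice without UV and to 19.4 to 57.7 cpm after it, and in Ppard-/- mice to 97.9 to 178 and 32.3 to 79.2 cpm. In each genotype 6 of the 7 fell. T cells also express Bcl2, and their part in the Bcl2 values was not tested. In such bulk samples, fewer cells of a type and less RNA per cell cannot be told apart. Suprabasal keratinocyte markers fell too (6 of 7 in WT and 7 of 7 in Ppard-/- mice), from 69733 to 81093 summed cpm in WT mice without UV to 15532 to 29327 cpm after UV. Of 6 Langerhans cell markers, 5 fell in each genotype and 1 rose in Ppard-/- mice. The summed basal keratinocyte markers rose, from 6946 to 15448 cpm in WT mice without UV to 16863 to 28855 cpm after it. Of these 6 markers, 3 were called higher and 2 lower in WT mice, and 4 and 1 in Ppard-/- mice.

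The other survival genes moved little. Mcl1 (chr3:95658788-95663176, plus strand), a short-lived guard of keratinocytes that BIM, BAK and NOXA bind, ranged from 223 to 266 cpm (median 250) in WT mice without UV and from 257 to 385 cpm (median 300) after it. In Ppard-/- mice it ranged from 225 to 276 cpm (median 244) and from 280 to 443 cpm (median 317). The groups overlapped in WT mice and did not in Ppard-/- mice. Mcl1 rose by 0.34 ± 0.08 on the log2 scale (adjusted P = 0.000229) in WT and by 0.39 ± 0.08 (adjusted P = 3.76e-05) in Ppard-/- mice. In WT males alone its call was lost without the mouse 38M, the highest of the group (0.22, adjusted P = 0.0747).

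Bcl2l1 (chr2:152780668-152831728, minus strand), which encodes the survival protein BCL-XL, ranged from 61.3 to 84.2 cpm (median 73.7) without UV and from 71 to 87.6 cpm (median 79.7) after UV in WT mice. In the Ppard-/- groups it ranged from 69 to 91.4 cpm (median 82.2) and from 72 to 96.3 cpm (median 82.0). The groups overlapped in both genotypes. Its log2 fold change was 0.14 ± 0.07 (adjusted P = 0.0701) in WT and -0.00 ± 0.07 (adjusted P = 0.990) in Ppard-/- mice, with a 95% interval of -0.14 to 0.14 in the latter. The WT value passed the threshold at 0.16 with RLE scaling (adjusted P = 0.0364) and with DESeq2 (adjusted P = 0.0315), at 0.15 without the mice of high mitochondrial counts (adjusted P = 0.0305) and at 0.18 without 54F (adjusted P = 0.0155). It passed in 15 of the 32 fits that left out a single mouse, so this call depends on the setting.

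Bcl2l2 (chr14:54883377-54888234, plus strand), encoding BCL-W, ranged from 47.5 to 57.7 cpm (median 50.9) and from 45.5 to 52.9 cpm (median 48.4) in WT mice without and with UV. The Ppard-/- values ranged from 45.3 to 57.5 cpm (median 55.7) and from 41.4 to 51.8 cpm (median 48.1). Its log2 fold change was -0.10 ± 0.05 (adjusted P = 0.106) in WT mice, and it fell by 0.19 ± 0.05 (adjusted P = 0.00220) in Ppard-/- mice, with overlapping groups in both. The difference between these responses was -0.09 ± 0.07 (log2, adjusted P = 0.508). A gene of the same strand, Gm20521, shares 594 exon bases with it.

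Among the BH3-only genes, Bid and Bmf moved in opposite directions. Bid (chr6:120891930-120916853, minus strand), whose protein caspase-8 cleaves to link death receptors to mitochondria, ranged from 2.41 to 3.46 cpm (median 3.31) in WT mice without UV and from 5.76 to 8.56 cpm (median 7.33) after it. Among Ppard-/- mice it ranged from 2.01 to 4.01 cpm (median 2.89) and from 4.97 to 9.13 cpm (median 6.07). The groups did not overlap in either genotype. It rose 2.33-fold (log2 1.22 ± 0.13, adjusted P = 2.29e-09) in WT and 2.32-fold (log2 1.21 ± 0.13, adjusted P = 2.86e-09) in Ppard-/- mice. The log2 difference between the 2 responses was -0.01, with a 95% interval of -0.38 to 0.37. Bid shares 628 exon bases with Bcl2l13 on the opposite strand.

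Bmf (chr2:118528757-118549687, minus strand), a BH3-only gene whose protein binds dynein light chains and is released when cells lose anchorage, ranged from 2.55 to 6.92 cpm (median 3.83) in WT mice without UV. After UV it ranged from 0.400 to 1.66 cpm (median 1.20), which is 11 to 44 reads per mouse, and no exposed WT mouse reached an unexposed one. In Ppard-/- mice the groups overlapped, with 1.23 to 5.79 cpm (median 3.66) without UV and 0.775 to 5.82 cpm (median 1.69) after it. Bmf fell by 1.93 ± 0.26 on the log2 scale (adjusted P = 2.61e-07, 3.81-fold) in WT and by 0.90 ± 0.26 (adjusted P = 0.00291, 1.86-fold) in Ppard-/- mice.

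Bcl2l11 (chr2:128126038-128162547, plus strand), encoding BIM, the BH3-only protein that binds all survival proteins, ranged from 4.96 to 7.48 cpm (median 6.59) without UV and from 4.62 to 8.39 cpm (median 6.80) with UV in WT mice. In Ppard-/- mice it ranged from 4.35 to 8.19 cpm (median 5.95) and from 3.68 to 11.7 cpm (median 9.49). The groups overlapped in both genotypes. Its log2 fold change was 0.07 ± 0.16 (adjusted P = 0.706) in WT mice, and it rose by 0.46 ± 0.16 (adjusted P = 0.0116) in Ppard-/- mice. Without the male 58M the latter was 0.34 and did not pass (adjusted P = 0.0578), and without the 3 mice of high mitochondrial counts it was 0.39 (adjusted P = 0.0586).

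Bad (chr19:6941861-6951899, plus strand), a BH3-only gene whose protein is silenced by survival kinases through phosphorylation, ranged from 15.6 to 22.3 cpm (median 19.8) without UV and from 15.9 to 20.9 cpm (median 17.8) after UV in WT mice. In the Ppard-/- groups it ranged from 16.5 to 22.1 cpm (median 18.9) and from 17.4 to 22.6 cpm (median 20.8). The groups overlapped throughout. Its log2 fold change was -0.12 ± 0.08 (adjusted P = 0.166, 95% interval -0.27 to 0.04) in WT and 0.11 ± 0.08 (adjusted P = 0.181, interval -0.04 to 0.27) in Ppard-/- mice. It shares 524 exon bases with Gpr137 on the opposite strand.

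The effector gene Bak1 rose, and so did Bok, whose protein resembles the effectors. Bak1 (chr17:27019810-27029009, minus strand) ranged from 18.7 to 28.3 cpm (median 22.9) in WT mice without UV and from 30.1 to 41.3 cpm (median 34.5) after UV. The Ppard-/- values ranged from 14.6 to 21.8 cpm (median 18.2) and from 27.0 to 41.8 cpm (median 29.4). The groups did not overlap in either genotype. It rose 1.5-fold (log2 0.59 ± 0.09, adjusted P = 1.14e-06) in WT and 1.72-fold (log2 0.78 ± 0.09, adjusted P = 9.50e-09) in Ppard-/- mice. Ggnbp1, on the opposite strand, overlaps it.

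Bok (chr1:93685660-93695764, plus strand) ranged from 76.6 to 109 cpm (median 83.4) in WT mice without UV and from 166 to 229 cpm (median 199) after it. Among Ppard-/- mice it ranged from 77.9 to 114 cpm (median 99.9) and from 148 to 234 cpm (median 213). Again no exposed mouse overlapped with an unexposed one of its genotype. It rose 2.26-fold (log2 1.17 ± 0.11, adjusted P = 1.90e-10) in WT and 2.04-fold (log2 1.03 ± 0.11, adjusted P = 2.46e-09) in Ppard-/- mice.

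**Figure D3:**
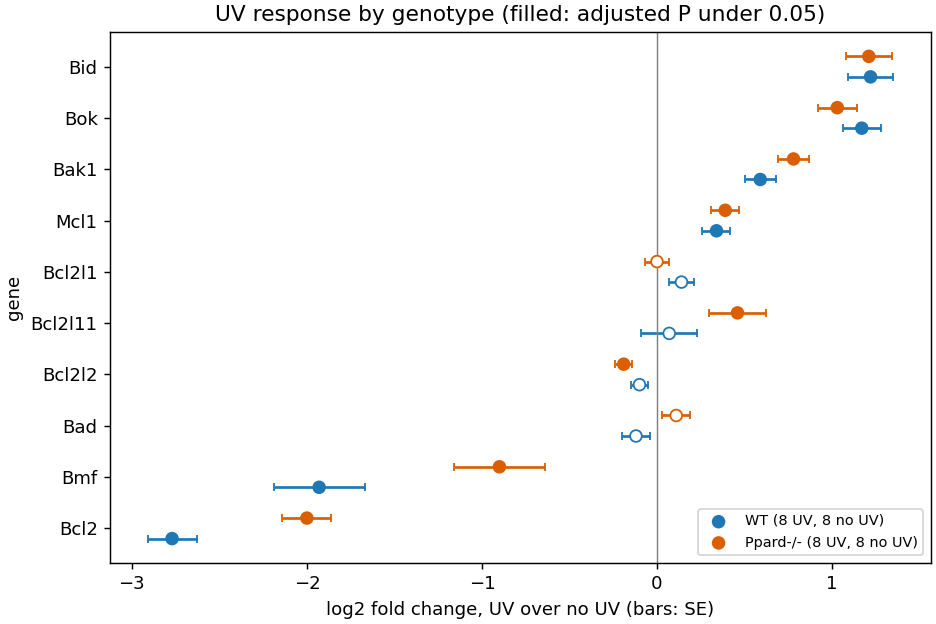
UV response of the 10 genes as log2 fold change (horizontal axis, bars are SE) in WT and Ppard-/- mice, 8 exposed against 8 unexposed each, with filled points for an adjusted P under 0.05. Bid, Bok, Bak1 and Mcl1 lie right of 0 in both genotypes, and Bcl2 and Bmf lie left of 0, further in WT (-2.77 and -1.93) than in Ppard-/- mice (-2.0 and -0.90). The genotype-by-UV interaction of these last genes did not pass with edgeR's quasi-likelihood test (adjusted P = 0.0511 and 0.127).

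The second question was whether genotype alters these levels. Without UV, none of the 10 members was called between Ppard-/- and WT mice by edgeR's quasi-likelihood test, by DESeq2 or by limma-trend, and 3 had an unadjusted P under 0.05, as had 1324 of all genes. Over all genes, 0.206% were called. Bak1 came closest, at -0.34 ± 0.09 (log2, adjusted P = 0.153). Its values in males did not overlap, with 14.6, 16.7, 18.8 and 18.9 cpm in Ppard-/- mice against 21.2, 23.6, 24.6 and 24.7 cpm in WT mice. In females they did overlap, with 17.3, 17.5, 19.8 and 21.8 cpm against 18.7, 20.7, 22.2 and 28.3 cpm. Bak1 lies 1.204 Mb from Ppard on chromosome 17, and in littermates of a mixed background the genotype at Ppard and the strain origin of nearby sequence cannot be told apart. The other members differed by between -0.28 (Bcl2) and 0.16 (Bcl2l1) on the log2 scale, and Bcl2l1 (adjusted P = 0.465) and Bcl2 (adjusted P = 0.560) did not pass after adjustment.

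After UV, 1 member was called between the genotypes, beside 3.31% of all genes. This was Bcl2, higher in Ppard-/- mice by 0.49 ± 0.14 (log2, adjusted P = 0.0496), with overlapping groups. The call stood at the threshold and was lost with RLE scaling (adjusted P = 0.0531), DESeq2 (0.0516), limma-trend (0.0708), filterByExpr (0.0652) and no filter on low counts (0.137), and in 24 of the 32 fits that left out a single mouse. Over those 32 fits the log2 value ran from 0.42 to 0.54. Without 54F it was 0.43 (adjusted P = 0.113) and without 58M 0.51 (adjusted P = 0.0709). Bmf was higher by 0.85 ± 0.26 (adjusted P = 0.0663), and it was called with DESeq2 (0.83, adjusted P = 0.0352) and without the 3 mice of high mitochondrial counts (1.04, adjusted P = 0.0381). Bcl2 without those 3 mice was at 0.59 (adjusted P = 0.0297). The fits without those mice keep only 54F and 66F among the Ppard-/- females after UV. Bcl2l11 (0.36 ± 0.16, adjusted P = 0.197), Bad (0.19 ± 0.08, adjusted P = 0.163) and Bak1 (-0.15 ± 0.09, adjusted P = 0.366) did not pass. Bid, Bok, Mcl1, Bcl2l1 and Bcl2l2 differed by between -0.13 and 0.07 on the log2 scale.

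The difference in the UV response itself was tested as a genotype-by-UV interaction, which called 0.765% of all genes and none of the members with edgeR. An unadjusted P under 0.05 was found for 3 members and for 3042 of all 15546 genes. DESeq2 called 1 member, beside 841 of all genes, and limma-trend called 0 members, beside 96 of all genes. Bcl2 fell less in Ppard-/- mice by 0.77 ± 0.19 on the log2 scale (adjusted P = 0.0511). This passed with DESeq2 (0.73, adjusted P = 0.0212), without the 3 mice of high mitochondrial counts (0.86, adjusted P = 0.0241) and when any of 9 mice was left out singly. Over the 32 fits without 1 mouse the adjusted P ran from 0.0303 to 0.0977. Bmf had an interaction of 1.03 ± 0.36 (adjusted P = 0.127) and Bad of 0.23 ± 0.11 (adjusted P = 0.229). Bcl2l11 was at 0.39 ± 0.23 (adjusted P = 0.342) and Bak1 at 0.20 ± 0.12 (adjusted P = 0.396).

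Split by sex, the genotype difference of Bcl2, Bmf and Bcl2l11 after UV was called in females and not in males. In females after UV, 3 of the 10 members were higher in Ppard-/- mice, beside 9.91% of all genes. In males none was called, beside 0.142% of all genes. There, 2 members had an unadjusted P under 0.05 with edgeR, as had 1104 of all 15546 genes. Bcl2 was at 2.41, 2.63, 2.69 and 3.19 cpm in Ppard-/- females against 1.31, 1.39, 1.43 and 1.66 cpm in WT females, with no overlap. In males the groups overlapped, with 1.28, 1.48, 1.83 and 2.14 cpm in Ppard-/- mice against 1.42, 1.47, 1.62 and 1.97 cpm in WT mice. The log2 difference of Bcl2 was 0.91 ± 0.20 (adjusted P = 0.00468) in females and 0.06 ± 0.20 (adjusted P = 0.980) in males. In females it was 0.82 without 54F (adjusted P = 0.0404) and 1.01 without the 3 mice of high mitochondrial counts (adjusted P = 0.00377). That last fit drops the Ppard-/- females 52F and 74F and keeps only 54F and 66F in their group.

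Bmf had the largest SE of the 3 on the log2 scale. It was at 1.90, 3.28, 3.63 and, in mouse 54F, 5.82 cpm in Ppard-/- females after UV, against 0.967, 1.43, 1.45 and 1.66 cpm in WT females, with no overlap. The male values were 0.775, 0.911, 1.10 and 1.48 cpm in Ppard-/- mice and 0.400, 0.676, 1.08 and 1.32 cpm in WT mice, with overlap. The log2 difference was 1.41 ± 0.37 (adjusted P = 0.0154) in females and 0.29 ± 0.38 (adjusted P = 0.919) in males. Without 54F the value in females was 1.08 and no longer passed (adjusted P = 0.114). Without the 3 mice of high mitochondrial counts it was 1.71 (adjusted P = 0.00613), with only 54F and 66F left as Ppard-/- females after UV.

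Bcl2l11 was at 9.83, 11.2, 11.5 and 11.7 cpm in Ppard-/- females after UV, above the 5.09, 6.52, 7.01 and 8.39 cpm of WT females. In males it was at 3.68, 5.76, 7.85 and 9.16 cpm in Ppard-/- mice and at 4.62, 6.73, 6.87 and 7.99 cpm in WT mice, with overlap. The difference in females was 0.71 ± 0.23 (log2, adjusted P = 0.0440). It was lost with RLE scaling (0.68, adjusted P = 0.0514), limma-trend (0.73, 0.0503), filterByExpr (0.65, 0.0581) and no filter (0.66, 0.101), without 54F (0.68, 0.130), without the mice of high mitochondrial counts (0.74, 0.0569), and in 11 of 32 fits without 1 mouse. Bad was the other member whose values did not overlap between genotypes after UV in 1 sex, at 20.3, 20.4, 21.6 and 22.0 cpm in Ppard-/- males against 15.9, 16.4, 17.3 and 18.9 cpm in WT males, and it did not pass the test (adjusted P = 0.542). The share of all genes without such overlap was not determined, so the lack of overlap does not set these members apart.

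**Figure D4:**
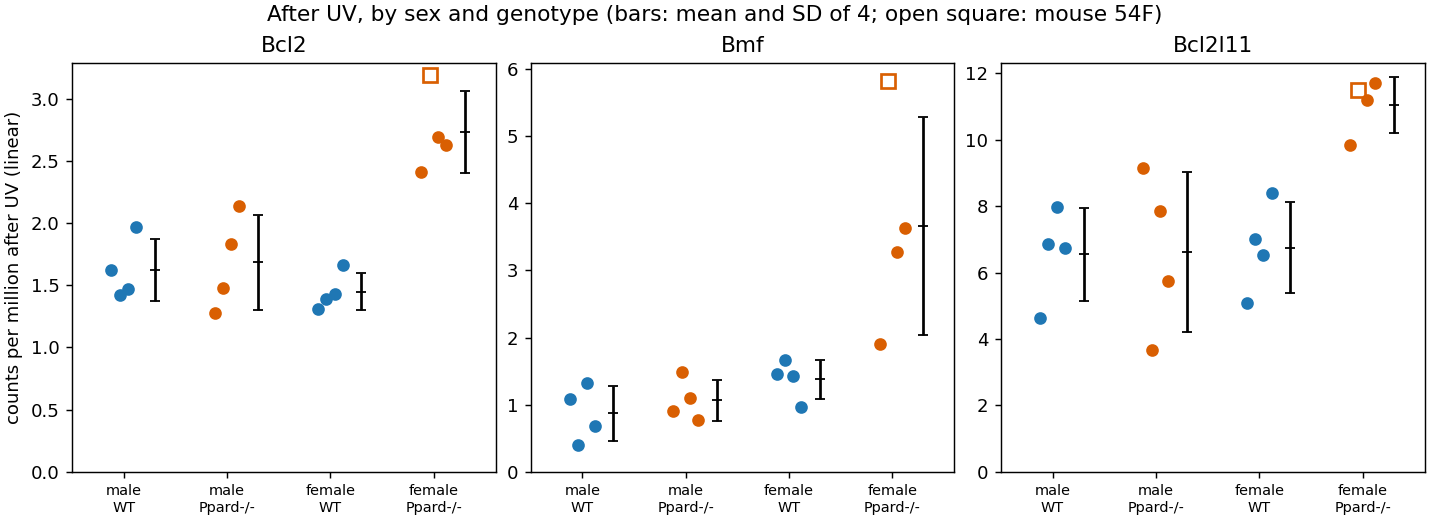
Cpm after UV (linear axes from 0) of Bcl2, Bmf and Bcl2l11, by sex and genotype, with 1 point per mouse, bars for the mean and SD of 4 mice, and mouse 54F as an open square. These genes were picked for their call in females. The 4 Ppard-/- females lie above the 4 WT females for each gene (for Bcl2 at 2.41 to 3.19 against 1.31 to 1.66 cpm), while the male groups overlap.

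A call in females and none in males does not show that the sexes differ, and the difference between them was tested directly. The female minus male difference of the genotype effect after UV was 0.86 ± 0.28 for Bcl2 (log2, adjusted P = 0.135), 1.12 ± 0.52 for Bmf (adjusted P = 0.324) and 0.70 ± 0.32 for Bcl2l11 (adjusted P = 0.307). None passed in this comparison, which was added after these values were seen and called 0.122% of all genes. In the UV response by stratum, Bmf fell in WT males (-1.92, log2), WT females (-1.94) and Ppard-/- males (-1.54), and was at -0.25 ± 0.36 (adjusted P = 0.562) in Ppard-/- females, or -0.57 (adjusted P = 0.191) without 54F. Bcl2l11 rose in Ppard-/- females (0.96 ± 0.23, adjusted P = 0.000729), and 0.94 without 54F (adjusted P = 0.00172). It was at -0.08, 0.22 and -0.03 in WT males, WT females and Ppard-/- males, none past the test. In these strata 60.9%, 61.3%, 61.7% and 60.7% of all genes were called in WT males, WT females, Ppard-/- males and Ppard-/- females, and 6, 6, 7 and 7 of the members. Bcl2l2 was called in both Ppard-/- strata, and several settings lost it (in females -0.19, adjusted P = 0.0902, without the mice of high mitochondrial counts). Bcl2l1 in WT females (adjusted P = 0.0504) passed without those mice (0.24, adjusted P = 0.0229). Bad in Ppard-/- males (adjusted P = 0.0740) passed without 54F (0.25, adjusted P = 0.0375).

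Some markers of other cells were also higher in the Ppard-/- females than in the WT females. After UV, the 7 T cell markers summed to 57.1 to 79.2 cpm in Ppard-/- females against 26.2 to 57.7 cpm in WT females, and the 6 Langerhans cell markers to 466 to 914 against 286 to 343 cpm. The 6 neutrophil and monocyte markers summed to 74.3 to 449 against 45.7 to 66.5 cpm, with the 449 cpm in 54F and at most 177 cpm in the other 3. Endothelial markers summed to 9.84 to 21.3 against 2.08 to 5.46 cpm. Of these lists, 1 of 7, 4 of 6, 3 of 5 and 1 of 3 tested markers were called higher in Ppard-/- females. All 6 fibroblast markers were called higher there too, at a median log2 difference of 7.27, and in 54F they summed to 1982 cpm. The same markers in the 3 Ppard-/- females other than 54F summed to 6.0 to 9.48 cpm, against 1.73 to 3.99 cpm in WT females. In males after UV, fibroblast markers summed to 10.6 to 30.0 cpm in Ppard-/- mice against 4.67 to 8.44 cpm in WT mice. The sums of the other 4 lists overlapped between genotypes in males, and no marker of the 5 lists was called there. Skeletal muscle markers ran from 3.71 to 2567 cpm over the mice, with 1800 cpm in 54F. The part of any of these cells in the Bcl2, Bmf and Bcl2l11 values was not tested.

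The UV response averaged over genotypes was also compared between the sexes. No member and 0% of all genes passed with edgeR, where 1091 genes and 2 members had an unadjusted P under 0.05, and DESeq2 called 22 genes and limma-trend 2. The 2 members were Bcl2l11, whose response was higher in females by 0.64 ± 0.23 (log2, adjusted P = 0.591), and Bcl2l1, higher by 0.21 ± 0.09 (adjusted P = 0.698).

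The rest of the pathway is given for comparison. Of 16 other BCL-2 family genes, 12 were tested, and 9 changed after UV in WT mice (5 higher, 4 lower) and 11 in Ppard-/- mice (7 higher, 4 lower), which is 75% and 91.7% of those tested beside 71% and 70.8% of all genes. Hrk, Bik, Bcl2a1c and Bcl2l10 stayed under the filter, and reads of the near-identical Bcl2a1 copies may be split among them. The p53 target Pmaip1, which encodes the MCL-1 binding protein NOXA, lay at 9.42 to 33.1 cpm in WT mice without UV and at 112 to 249 cpm after UV (log2 3.19 ± 0.21, adjusted P = 1.49e-13). Bax lay at 9.26 to 14.2 cpm and at 32.6 to 46.6 cpm (log2 1.95 ± 0.10, adjusted P = 8.27e-16). Bbc3, encoding PUMA, did not pass in WT mice (-0.12 ± 0.18, adjusted P = 0.568) and rose in Ppard-/- mice (0.56 ± 0.18, adjusted P = 0.00650), with an interaction that did not pass (0.68 ± 0.25, adjusted P = 0.142). Bcl2l14 fell by 3.28 in WT and by 3.66 in Ppard-/- mice on the log2 scale, and Bcl2l15 rose by 2.82 and 3.05.

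Downstream, 13 of 20 caspase cascade genes changed in WT mice (7 higher, 6 lower) and 18 in Ppard-/- mice (12 higher, 6 lower), against 71% and 70.8% of all genes, so the WT count does not set the list apart. Apaf1, the scaffold of the apoptosome, rose by 2.45 ± 0.10 on the log2 scale in WT mice. Dffa, the inhibitor of the DNase that cuts chromatin in apoptosis, fell by 1.65 ± 0.08, and Casp2 fell by 1.05 ± 0.08. In the death receptor arm, which reaches the mitochondria through BID, 7 of 11 tested genes changed in WT mice (6 higher, 1 lower) and 8 in Ppard-/- mice (7 higher, 1 lower), shares near those of all genes. Tnfrsf10b, the TRAIL receptor, rose by 4.08 ± 0.17 (log2) in WT mice from a level of 3.30 to 5.16 cpm, while its ligand Tnfsf10 fell by 3.90 ± 0.37. Tnf rose by 2.24 ± 0.24 and the adaptor Tradd by 0.53 ± 0.08. No caspase cascade or death receptor gene had a genotype-by-UV interaction past the threshold with edgeR. An unadjusted P under 0.05 was found for 4 of the 20 caspase cascade genes, 1 of the 11 death receptor genes and 3042 of all 15546 genes.

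Of 20 genes that regulate MCL-1 and the BH3-only proteins, 16 changed after UV in WT mice (7 higher, 9 lower) and 17 in Ppard-/- mice (9 higher, 8 lower), beside 71% and 70.8% of all genes. Ddit3, Gsk3a and Sfn rose in WT mice by 0.77, 0.75 and 0.81 on the log2 scale. In this list 2 genes passed the genotype-by-UV test, beside 0.765% of all genes. Btrc, which encodes a ubiquitin ligase subunit, lay at 5.93 to 10.4 cpm without UV and at 0.809 to 1.65 cpm after it in WT mice. In Ppard-/- mice it lay at 4.70 to 7.68 and at 1.11 to 3.83 cpm, and the interaction was 1.02 ± 0.21 (log2, adjusted P = 0.0178). Dynll2, the dynein light chain that holds BMF, was named after its values were seen. Its log2 fold change was -0.20 ± 0.12 (adjusted P = 0.15) in WT mice, it rose by 0.56 ± 0.12 (adjusted P = 0.000202) in Ppard-/- mice, and the interaction was 0.76 ± 0.17 (adjusted P = 0.0323).

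The genes whose log2 cpm followed each member most closely across the 32 mice were also listed, as a description in which all points share the same libraries and the UV split. For Bcl2 they were Zfp652 and Rsrc1 (Pearson r = 0.975 and 0.974), for Bok Cdca4 and Tnfrsf12a (0.973 and 0.972), for Bid Fst and Clcf1 (0.941 and 0.94), and for Mcl1 Elk4 and 1810013L24Rik (0.934 and 0.929). Bak1 followed Impdh1 and Lima1 (0.921 and 0.919), and Bmf Rin3 and Fgd3 (0.91 and 0.904). The other 4 members had looser partners, namely AW549877 and Tom1 for Bcl2l2 (0.834 and 0.812), Clec5a and Mertk for Bcl2l11 (0.758 and 0.732), Rpl36 and Edf1 for Bad (0.724 and 0.656) and Krcc1 and Ptk6 for Bcl2l1 (0.692 and 0.677).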

How the data were processed

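Per the paper's methods and the labels, single-end reads of stranded mRNA libraries were trimmed (cutadapt 1.8), aligned with STAR 2.5.3a and counted per gene with HTSeq 0.9.1. The processing notes name the mouse build GRCm38, which was used for coordinates, with GENCODE M21 for symbols. The authors deposited raw read counts per gene and mouse, without normalization. The labels give RNA quality numbers of 6.4 to 8.4, and the paper's methods state a higher range. Reads without a gene were 6.8 to 9.75% and ambiguous reads 1.28 to 1.56% of all reads in the tables, and these rows entered no fit. Depth ranged from 22919428 to 40653581 counts on genes. The reads carry no molecular identifiers.

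The filter asked for 1 cpm or more in any of the 32 mice. All mice were fitted together with a mean for each combination of sex, genotype and treatment (R 4.3.3, edgeR 4.0.16: TMM scaling, quasi-likelihood test). Contrasts averaged the sexes, SE values are of log2 fold changes, and P values were adjusted over the 15546 genes by Benjamini-Hochberg with a threshold of 0.05. The paper's limma-trend model was an alternative (limma 3.58.1), as were DESeq2 1.42.0, RLE scaling, filterByExpr, no filter, each sex alone, genotypes fitted separately and each mouse left out. Leaving out mice over 5% mitochondrial counts, and the comparison of genotype effects between sexes, were added after seeing the data. Mice are separate animals, so P values measure the spread between mice. No 2 mice of a group had counts within sampling noise of each other (chi-square per degree of freedom of 19.5 or more in 48 pairs).

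All 10 members are named, and from each other list the 4 tested genes with the largest mean change over both genotypes and at least 1 cpm in WT mice, plus Bax, Bbc3 and Pmaip1. A gene of this rule is not reported here. The members and lists were chosen with earlier results of these data known. Promoter windows came from RefSeq (GRCm38.p6), where all 10 members matched.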

Additional observations from a re-analysis of the deposited data

Results flagged for a closer look

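In each of the 80 groups of 4 mice (10 genes in 8 groups), the gap of the most extreme mouse to its nearest neighbour was compared with the group's range, a check that chance alone sets off in about 1 of 20 groups. It singled out 6 values. Mcl1 was at 225 cpm in the Ppard-/- female 69F without UV, against 235 to 236 cpm in the other 3. Bid was at 8.62 cpm in the exposed Ppard-/- male 58M (others 5.95 to 6.35 cpm), a mouse with 7.9% mitochondrial counts, and at 2.63 cpm in the unexposed WT male 56M (others 3.41 to 3.46 cpm). Bak1 was at 32 cpm in the exposed Ppard-/- male 72M (others 27.0 to 27.7 cpm). Bok was at 148 cpm in the exposed Ppard-/- female 54F, the mouse with the fibroblast markers (others 217 to 229 cpm). Bmf was at 1.23 cpm in the unexposed Ppard-/- male 52M (others 3.56 to 3.88 cpm), and without that mouse the fall of Bmf in Ppard-/- mice was 1.07 on the log2 scale and not 0.90.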

How the results depend on the processing

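With the sexes averaged or a sex taken alone, no call of a UV response was lost for Bcl2, Mcl1, Bid, Bak1 or Bok in either genotype under the alternatives run, except that of Mcl1 in WT males without 38M (0.22), and Bmf lost its call in Ppard-/- mice only in females alone (-0.25). Genes called between genotypes without UV were 78 with DESeq2, 12 in males and 3 in females, and 20 to 45 with a mouse left out. After UV they were 1116 with DESeq2, 260 with limma-trend, 263 without a filter, 22 in males and 1540 in females (133 to 983 with a mouse left out). Members called after UV were 0 with RLE, limma-trend, filterByExpr, no filter and in males, 2 without the mice of high mitochondrial counts, 3 in females, and 0 to 2 with a mouse left out. The genotype-by-UV test called 841 genes with DESeq2, 55 without a filter, 503 without the mice of high mitochondrial counts, 12 in males and 39 in females (56 to 346 with a mouse left out), with 1 member under DESeq2 and without those mice, and 0 to 1 with a mouse left out. The sex-by-UV test called 22 genes with DESeq2, 2 with limma-trend, 1 without the mice of high mitochondrial counts and 0 to 1 with a mouse left out.

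Small log2 values changed sign. Bcl2l11 after UV was at -0.08 in WT males and -0.03 in Ppard-/- males, and with a mouse left out ran from -0.17 to 0.07 and -0.20 to 0.18 there, and without UV from -0.14 to 0.03 between genotypes. Bak1 after UV was at 0.01 between genotypes in females, Bmf in Ppard-/- females at 0.05 after UV without the mice of high mitochondrial counts, and Bcl2 in males after UV between -0.08 and 0.17 with a mouse left out. The causes were not tested. No paired analysis was possible because the animal numbers pair no mice. Counts of 11 to 44 reads of Bmf in exposed WT mice limit its precision.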
